A study of Mus musculus with 8 samples.

Results

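The nuclei described here are a small antigen-presenting population of mouse gastrocnemius muscle, referred to as MHC-II/Ccr2 nuclei, and they were found in single-nucleus RNA-seq libraries made on the 10x Genomics platform. Nuclei were chosen by unique molecular identifiers (UMIs, the individually counted RNA molecules of a nucleus). At least 3 UMIs over H2-Ab1, H2-Aa, H2-Eb1, Cd74 and Ccr2 were required with at least 2 of these 5 genes detected, and this sum had to be no smaller than the sum of Mrc1, F13a1 and Cd163. At least 1 UMI of Csf1r, Wdfy4, Lyz2 or Atp8b4 was required as well, and Pax5, Ms4a1, Pecam1 and Pdgfra had to be at 0. The rule was met by 256 of 47059 retained nuclei, of 64803 in the whole series. The Old library gave 126 of its 11686 nuclei, the Young library 73 of 11795, the Running library 38 of 12991 and the Sedentary library 19 of 10587. All animals were wild-type C57BL/6 mice: Young mice were 3 months old and Old mice were 20 months old. Running mice were 11-month-old animals exercised on a treadmill for 2 months, in 30 min sessions at 9 m per min with 2 to 3 days of rest. They were compared with Sedentary animals of the same model, also 11 months old at its start, that did not run. Each group had 1 library on this platform, the number and sex of the mice behind a library were not given in the sources used here, and the muscle had been frozen before the nuclei were isolated. A second set of 4 libraries from another platform held 2 nuclei that met the rule, both in Old, and is described only by this count. No barcode of a chosen nucleus was shared between libraries.

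MHC class II molecules carry peptides from engulfed proteins to the cell surface, where CD4 T cells read them. H2-Aa, H2-Ab1 and H2-Eb1 encode the chains of the surface molecule, Cd74 the invariant chain that guards its groove, and the H2-DM proteins exchange the invariant chain remnant for a peptide, while Ciita is the master transcriptional activator of the whole set. Ccr2 is the chemokine receptor that draws monocytes out of the blood. In resting muscle, macrophages that settle locally carry the scavenger receptors Mrc1 and Cd163, whereas monocyte-derived macrophages and conventional dendritic cells (cDC, the professional antigen-presenting cells) carry more MHC class II.

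The promoters of MHC class II genes share an X box and a Y box through which Ciita acts. Windows are shown for 2 genes of the rule and for the H2-DMb pair, which was higher in these nuclei without being used by it, and they were picked among entries that hold at least 1 of the motifs. The windows were taken from RefSeq promoter entries of GRCm38.p6, the assembly behind mm10. Each runs 5′ to 3′ on the gene's strand from 140 to 21 bases before the annotated start, and capitals mark TGATTGG (the Y box core) and AACNNATG (a part of the X box). Both motifs were searched on both strands of the 250 bases upstream, and they do not overlap here. The window of H2-Aa lies at chr17:34287844-34287963 on the minus strand, that of H2-Eb1 at chr17:34305727-34305846, that of H2-DMb1 at chr17:34153051-34153170 and that of H2-DMb2 at chr17:34145109-34145228, the last 3 on the plus strand.
H2-Aa: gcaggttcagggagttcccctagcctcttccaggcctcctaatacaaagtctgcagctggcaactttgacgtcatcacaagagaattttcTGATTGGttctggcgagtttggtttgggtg
H2-Eb1: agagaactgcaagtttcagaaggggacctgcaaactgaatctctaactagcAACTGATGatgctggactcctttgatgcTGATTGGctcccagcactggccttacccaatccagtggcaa
H2-DMb1: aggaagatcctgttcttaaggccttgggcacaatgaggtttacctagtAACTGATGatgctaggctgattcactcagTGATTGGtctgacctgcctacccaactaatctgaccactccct
H2-DMb2: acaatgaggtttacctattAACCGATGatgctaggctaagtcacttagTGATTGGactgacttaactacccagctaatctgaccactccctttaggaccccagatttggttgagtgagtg
The X box letters stood in every one of these windows but that of H2-Aa. Of the other entries of the pathway, both of H2-DMa, a gene that was also higher in these nuclei, held neither motif, that of H2-Oa held TGATTGG alone and that of H2-Ob held both. Over all 32851 promoter entries, 7.23% held TGATTGG, 7.71% held AACNNATG and 0.664% held both. The windows of the neighbouring H2-DMb1 and H2-DMb2 are alike, and reads of these paralogs could be split between them in counting.

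The genes of the rule give the character of the nuclei, as a description and with no test, since the nuclei were selected on them. Levels are given as CPM, the UMIs of a gene over all UMIs of the nuclei of a class in a library, scaled to 1000000 and not corrected for gene length. In the Old, Young, Running and Sedentary libraries, Cd74 stood at 2960, 3783, 1683 and 2030 CPM. H2-Aa stood at 2133, 2067, 1288 and 876 CPM in the same order, and Ccr2 at 786, 840, 745 and 600 CPM. Cd74 and H2-Aa were thus higher in the Old and Young libraries than in Running and Sedentary, whereas Ccr2 differed less. These levels are in part fixed by the choice of nuclei. H2-DMb1, which the rule did not use, stood at 276, 361, 171 and 277 CPM in the same order. At least 1 UMI of Cd74 was present in 95.7% of the nuclei, of H2-Aa in 93.0%, of H2-Eb1 in 90.2%, of H2-Ab1 in 87.5% and of Ccr2 in 64.1%. The background was low: in 29977 nuclei rich in myofibre transcripts, Cd74 was detected in 1.91% and Ccr2 in 0.274%, at a median of 3142 UMIs against 2648.5 in the MHC-II/Ccr2 nuclei. All 5 genes were detected in 131 nuclei, and every nucleus held at least 1 UMI of an MHC class II gene. The median sum over the 5 genes was 20, 23, 16 and 8 UMIs in the same order of libraries, with a maximum of 165. Just inside the limit were 8 nuclei with a sum of 3, and just outside it were 14 with a sum of 2. A further 277 nuclei had a larger sum of Mrc1, F13a1 and Cd163, and 98 carried a UMI of Pax5, Ms4a1, Pecam1 or Pdgfra. Most chosen nuclei were not free of resident genes: Mrc1 was detected in 64.5%, F13a1 in 52.7% and Cd163 in 31.6%, and 58 nuclei held none of the 3.

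Of the genes of which the rule asked for at least 1 UMI, Wdfy4, required for cross-presentation in dendritic cells, was detected in 63.7%, Lyz2 (lysozyme) in 65.6% and Csf1r, the receptor for the macrophage growth factor, in 36.7%, which is in part fixed by the choice. Other markers were read against the label by whole lists. The monocyte list summed to 1144 to 1436 CPM in the 4 libraries, against 83.5 to 191 CPM in resident-like nuclei, and nearly all of it was Fn1, with 1018 UMIs. Of its other genes, Cx3cr1 had 19 UMIs, Ms4a4c 14, Plac8 11 and Vcan 8, while Ly6c2 and Chil3 of classical monocytes had 1 and 2. The 6 genes of migratory dendritic cells summed to 8.80 to 74.5 CPM, with 18 UMIs of Socs2, 4 of Il4i1, 1 of Ccr7 and none of Fscn1, Ccl22 or Cacnb3. The B and plasma cell list summed to 415 to 589 CPM, against 824 to 1464 in resident-like and 4170 to 17099 in B cell-like nuclei, with 278 UMIs of Bank1, 98 of Ebf1, 59 of Ighm and none of Cd79a. Of the T and NK cell list, Il7r had 25 UMIs, Skap1 16, Themis 8, Cd3g 6 and Cd3e none, and 6 nuclei held at least 2 UMIs of T cell genes. The summed level of these 11 genes lay between 29.8 and 115 CPM, against 2740 to 6573 in nuclei chosen as T cell-like. RNA of muscle fibres was present throughout. The 9 myofibre genes summed to 14166, 7926, 25738 and 5420 CPM in the same order, against 65400 to 80419 in the myofibre-rich nuclei. The part of this RNA in the results was not tested.

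To see what sets these nuclei apart from the other macrophages of the same muscle, they were compared with 619 resident-like nuclei, chosen by the mirrored rule on Mrc1, F13a1 and Cd163 (267, 152, 155 and 45 nuclei in the same order of libraries). All tested genes of the general dendritic and cDC1 lists were higher in the MHC-II/Ccr2 nuclei, and all tested genes of the resident macrophage list were lower. Of the genes of lipid handling and efferocytosis, the clearing of dead cells, 9 were lower, 3 higher and 2 did not pass the test. UMIs were summed per library and class, and the 4 pairs of sums were compared by edgeR's quasi-likelihood test with the library as a term. Of 6859 genes tested, 963 (14%) had an adjusted p under 0.05, of which 465 (6.78%) were higher and 498 (7.26%) were lower. The 16 genes of the rules were not tested. Other genes were measured in the same nuclei, and those that go along with the rule genes within a nucleus were selected with them.

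Clec9a (chromosome 6, 129408862 to 129424763), the receptor by which cross-presenting dendritic cells sense dead cells, had the largest rise by the naming rule. It stood at 173, 141, 164 and 92.3 CPM in the Old, Young, Running and Sedentary libraries, against 0, 0, 4.79 and 10.4 in resident-like nuclei, where it rested on 3 UMIs (log2 ratio of the pooled UMIs 6.54, exact counting interval 4.97 to 8.84). The ranges of both classes did not overlap, and the fitted log2 fold change was 6.19 ± 0.55 (SE, n = 4 libraries, adjusted p = 1.26e-07, edgeR). Flt3, the growth factor receptor on which dendritic cells depend, stood at 81.8, 83.6, 104 and 46.1 CPM against 2.46, 0, 0 and 20.9, and rose by 4.95 ± 0.65 (adjusted p = 9.37e-06, edgeR). Btla, an inhibitory receptor of lymphocytes and dendritic cells, was counted with 35, 18, 14 and 3 UMIs against 1, 0, 0 and 1 (log2 fold change 5.78 ± 0.65, pooled counting interval 4.31 to 9.29). Napsa, an aspartic protease, was counted with 35, 18, 8 and 3 UMIs against 1, 1, 0 and 0 (5.62 ± 0.64, pooled counting interval 4.17 to 9.16). In each of these genes every library of MHC-II/Ccr2 nuclei lay above every library of resident-like nuclei. The other genes named by size were the adaptor Clnk (5.81), the vesicle protein Sv2b (5.25), the non-coding Gm36723 (5.02), the transcription factor Bcl11a (4.96), the adhesion molecule Jaml (4.88), the leukotriene receptor Ltb4r1 (4.80), the adaptor subunit Ap1s3 (4.76) and Zfp366 (4.67), all with an adjusted p of 3.38e-05 or below (edgeR).

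**Figure D1:**
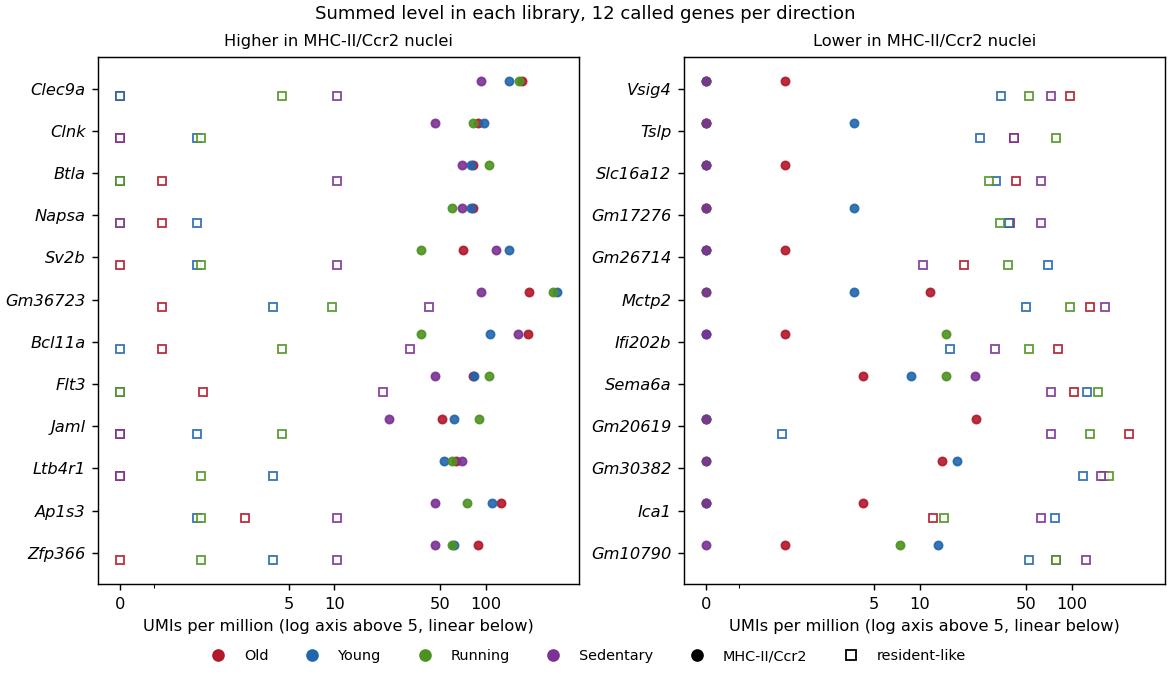
Summed level of the 24 called genes named by size (rows), in CPM on an axis that is logarithmic above 5 and linear below, for MHC-II/Ccr2 nuclei (filled circles) and resident-like nuclei (open squares), 1 point per library in the group's colour. Clec9a lies between 92.3 and 173 CPM in MHC-II/Ccr2 nuclei and between 0 and 10.4 in resident-like nuclei, while Vsig4 shows the opposite order.

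In the other direction, Vsig4, a complement receptor of resident macrophages, was counted with 1 UMI in all MHC-II/Ccr2 nuclei, in Old, against 80, 15, 22 and 7 UMIs in resident-like nuclei. The fitted log2 fold change was -5.56 ± 0.71 (adjusted p = 6.87e-06, edgeR), and the pooled counting interval was -11.2 to -3.36. Tslp, an epithelial-type cytokine, had 1 UMI against 34, 11, 33 and 4, and Slc16a12, a creatine transporter, 1 UMI against 35, 14, 12 and 6. Sema6a, a transmembrane semaphorin, was found in all libraries at 4.68 to 23.1 CPM against 73.0 to 149 (log2 fold change -3.71 ± 0.43, adjusted p = 2.01e-06, edgeR). The other genes named by size on this side were Mctp2, Ifi202b, Ica1 and the non-coding Gm17276, Gm26714, Gm20619, Gm30382 and Gm10790. For Gm20619 the resident-like level itself ranged from 2.27 CPM in Young to 238 in Old; in Young the difference was 1 UMI. Gm17276 and Gm26714 are annotated as antisense, and the counting was not stated to use strand.

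The lists of known genes were read against the 6.78% of tested genes that were higher and the 7.26% that were lower, with a median log2 fold change of 0.01 over all tested genes. All 5 genes of the dendritic list rose: Itgax (CD11c, log2 fold change 5.16), Flt3, Dpp4 (4.25), Ciita (1.61) and Zbtb46, the transcription factor of conventional dendritic cells (1.48). Of the 8 genes of the cDC1 list, the subset that cross-presents to CD8 T cells, Wdfy4 belongs to the rule and Xcr1 had too few UMIs to test (23 against 2 in resident-like nuclei). The remaining 6, Clec9a, Irf8, Cadm1, Batf3, Tlr3 and Itgae, all rose, with a median of 2.37. Of the 6 cDC2 genes, only Itgam rose (0.84 ± 0.23, adjusted p = 0.0159, edgeR). Clec10a fell by 1.15, and Irf4, Cd209a, Sirpa and Mgl2 did not pass the test. Of the 5 plasmacytoid genes, Runx2 rose, Siglech and Tcf4 fell, Bst2 did not pass and Ccr9 could not be tested.

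Among genes of MHC class II processing that the rule did not use, 5 of the 8 tested were higher and 1 was lower, and 6 of the 14 on the list had too few UMIs. H2-DMb1 stood at 276, 361, 171 and 277 CPM against 27.0, 63.6, 40.7 and 31.3, and rose by 2.70 ± 0.27 (adjusted p = 3.69e-07, edgeR). All 4 libraries of MHC-II/Ccr2 nuclei lay above all 4 of resident-like nuclei. Ciita stood at 362, 435, 328 and 254 against 93.4, 145, 163 and 31.3 CPM (adjusted p = 3.66e-05, edgeR), again without overlap. H2-DMa rose by 1.77 ± 0.34, Ctss, the protease that trims the invariant chain, by 0.85 ± 0.22, and H2-DMb2 by 5.17 ± 0.93, the last on 28 UMIs in all MHC-II/Ccr2 nuclei and 1 in resident-like nuclei (pooled counting interval 3.30 to 11.2). Lgmn, another lysosomal protease, fell by 1.33 ± 0.22. Ifi30 and March1 did not pass the test. H2-Ob, a modulator of H2-DM, could not be tested on 24 UMIs against 4, and H2-Eb2 was at 0 UMIs in both classes. The costimulation list did not follow: of 5 genes tested Cd40 fell, and Cd86, Cd80, Cd83 and Icosl did not pass the test. In the MHC class I list H2-D1 and H2-T23 rose at adjusted p values of 0.0363 and 0.0424 (edgeR), and the other 6 tested did not pass.

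Adhesion genes rose together with these. Of 8 tested chemokine receptors and integrins, 6 were higher, all of them integrin chains: Itgax, Itgal (4.77), Itgb7 (3.88 ± 0.42), Itgb2 (1.53), Itga4 (1.28) and Itgam. Itgb7 stood at 119, 101, 81.9 and 138 CPM against 7.37, 9.09, 4.79 and 0, so the classes did not overlap. Of 19 tested myeloid transcription factors, 7 rose. These were Id2, a regulator needed for dendritic cells (4.52 ± 0.50), Bcl11a, Irf8 (2.07 ± 0.27), Batf3 (2.13 ± 0.31), Zbtb46, Ikzf1 and Runx2. Maf, a transcription factor of macrophages, fell (-1.43 ± 0.23). Fn1 (fibronectin, chromosome 1, 71585520 to 71653200), the only testable gene of the 11 on the monocyte list, stood at 1328, 1060, 1191 and 1130 CPM against 50.4, 136, 50.3 and 10.4, and rose by 4.17 ± 0.31 (adjusted p = 2.11e-08, edgeR). The lowest library of MHC-II/Ccr2 nuclei lay above the highest of resident-like nuclei.

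**Figure D2:**
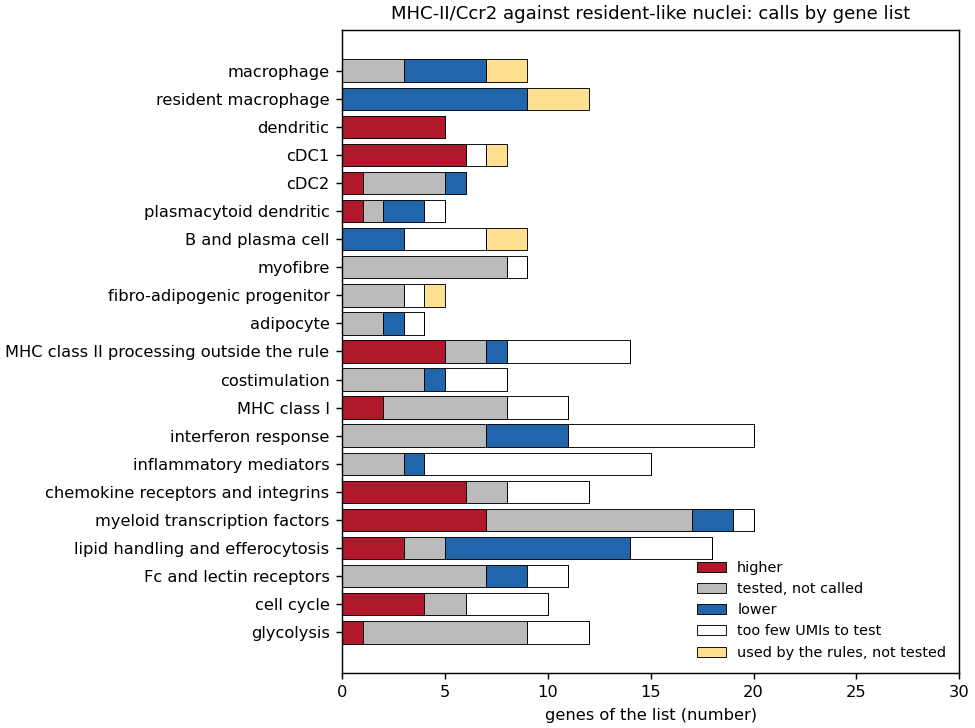
Number of genes of each list (bars, in genes) that were higher (red), lower (blue) or not called (grey) in MHC-II/Ccr2 against resident-like nuclei by edgeR, with those that had too few UMIs to test in white and those used by the rules in yellow, for lists with at least 3 tested genes. All 5 dendritic genes are red and all 9 tested resident macrophage genes are blue.

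All 9 tested genes of the resident macrophage list fell: Lyve1, Cbr2, Stab1, Timd4, Gas6, Igf1, Folr2, Maf and Pf4, with a median log2 fold change of -2.22. Stab1, a scavenger receptor, stood at 103, 132, 119 and 92.3 CPM against 653, 602, 815 and 292 (-2.49 ± 0.24, adjusted p = 2.53e-07, edgeR), again with no overlap. Because the classes were cut on 3 genes of this list, the direction of the others is not independent of the choice. Of the macrophage list, Mertk (-2.25), Rbpj (-1.35), Adgre1 (F4/80, -0.91) and C1qa (-0.78) fell, and Fcgr1, Cd68 and Tbxas1 did not pass the test. In the list of lipid handling and efferocytosis, 9 of 14 tested genes fell, among them Abca1 (-1.97), the cholesterol exporter, and Apoe (-0.89), while Lpl, Cd9 and Abcg1 rose. Lpl (lipoprotein lipase) stood at 512, 290, 238 and 277 CPM against 108, 114, 64.7 and 83.5 (1.80 ± 0.23, adjusted p = 7.6e-06, edgeR). Of the interferon list, none of 11 tested genes rose at the adjusted threshold and 4 fell (Iigp1, Gbp7, Oas2 and Parp14), with 9 of the 20 too low to test. Among inflammatory mediators Tlr4 fell, Nlrp3, Nfkb1 and Tgfb1 did not pass, and 11 of 15 were too low to test. Among these, Il1b had 12 UMIs, in 4 nuclei, against 0 in resident-like nuclei, Clec4e 9 against 0, Il1rn 17 against 1, Cxcl2 23 against 4 and Tnf 14, in 4 nuclei, against 8, whereas Tlr2 had 14 against 39 and Il10 0 against 10. Of 9 tested Fc and lectin receptors, Clec10a and Siglec1 fell and 7 did not pass, Cd209a and Fcgr2b among them.

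Of 10 genes of cell division, 6 could be tested and 4 of these rose. Diaph3, a formin, rose by 2.24 ± 0.41, Knl1 and Kif11, of the kinetochore and spindle, by 3.11 ± 0.77 and 3.16 ± 0.94, and Ezh2 by 1.10 ± 0.37, while Cenpf (adjusted p = 0.0611, edgeR) and Anln did not pass. Of the 4 calls, only that of Diaph3 was kept with each library left out in turn. At least 2 UMIs of the cell cycle list were found in 25 nuclei (9.77%, 95% Wilson interval 6.70 to 14.0), and these were deeper, with a median of 4297 UMIs against 2602 in the rest. Mki67 had 14 UMIs and Top2a 18. Of the glycolysis list, which bears on the metabolic question of the study, Pfkp (platelet-type phosphofructokinase) rose by 1.96 ± 0.31 (166, 119, 149 and 138 CPM against 30.7, 54.5, 24.0 and 41.7). Hif1a, Pkm, Ldha, Slc16a3, Gapdh, Hk2, Hk3 and Aldoa did not pass the test. Kit, tested as a mast cell marker, rose by 4.28 ± 0.93, while Cpa3 had 1 UMI and Mcpt4 none. Bank1, Ebf1 and Ighm of the B cell list fell, Pde3b of the adipocyte list and Csf3r of the neutrophil list fell, and none of the 8 tested myofibre genes or the 3 tested fibro-adipogenic genes passed the test.

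Leaving out 1 library moved the count of called genes over 1.5 times in 2 cases: 324 genes were called without Old and 530 without Young. Of the genes named above, H2-DMa, Cd9, Gbp7 and Pf4 lost their call without Old and under no other library left out. Adgre1, Apoe, C1qa, Ctss, Itgam, Ikzf1, Clec10a, Oas2, Parp14, Siglec1, Cd40, Tlr4, Abcg1, Ebf1, Ighm, Pde3b, H2-D1 and Ezh2 lost it without Old and also without Young, and Parp14, H2-D1 and Ezh2 without Running as well. Runx2 and Knl1 lost it without Young, H2-T23 without Young or Sedentary, Csf3r without Young or Running, and Kif11 without Running.

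The MHC-II/Ccr2 nuclei were not uniform, and a split by 2 detected markers divided them into nuclei of different make-up. Clec9a or Xcr1 was detected in 34 nuclei (13.3%, 95% Wilson interval 9.66 to 17.99) and Fn1 in 97 (37.9%, 32.2 to 44.0), and only 1 nucleus held both. The other 126 held neither. These values are descriptions of nuclei from the same 4 libraries, with exact intervals that cover counting error only, and with no test, since the subsets were selected on the markers after earlier results were known.

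The 34 nuclei with Clec9a or Xcr1 are called cDC1-like, from the markers of that list that did not choose them. Irf8 was detected in 31, Cadm1 in 29, Tlr3 in 18 and Itgae in 10. Wdfy4, a gene of the rule, was detected in all 34, where Csf1r was at 0 and Lyz2 in 7, so its share follows in part from the choice. Among the other 222 nuclei, Irf8 was detected in 18 and Tlr3 in 11. Irf8, the transcription factor on which these cells depend, stood at 1359 CPM against 46.5 in the other nuclei (log2 ratio 4.87, 95% exact interval 4.32 to 5.46), and Cadm1 at 2827 against 168. Irf8 was seen in 18 of 20 such nuclei in Old, 8 of 8 in Young, 4 of 4 in Running and 1 of 2 in Sedentary, so the pattern was not that of 1 library. Flt3, Zbtb46, Dpp4 and Itgb7 followed, at 436, 1002, 674 and 476 CPM against 35.5, 112, 65.6 and 58.8. Batf3 differed by less than its counting interval, at 178.5 against 134 CPM (log2 ratio 0.41, -0.40 to 1.15). Several macrophage genes were at or near 0: Csf1r, Mertk, Fcgr1, C1qa and C1qb had 0 UMIs in the 34 nuclei, Adgre1 had 2, Cd68 3 and Lyz2 10. Others of the macrophage list were present, with Tbxas1 at 873 against 726 CPM (log2 ratio 0.27, -0.08 to 0.59) and Rbpj at 1389 against 3201. Zeb2 was detected in 6 of them and in 211 of the other 222. Timd4, on the list of resident macrophages, was an exception, detected in 13 of the 34 and in 16 of the other 222 (218 against 34.2 CPM, log2 ratio 2.68, 1.78 to 3.56). The interval for H2-Aa included no difference, at 2063 against 1892 CPM (log2 ratio 0.12, -0.09 to 0.34), and Ccr2 was detected in 22 of the 34.

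The 97 nuclei with Fn1 had more Itgam (CD11b), Irf4 and Lpl. Itgam was detected in 68 of them and in 45 of the other 159 nuclei, Irf4 in 43 against 19 and Lpl in 58 against 37. Lpl stood at 689 against 134 CPM (log2 ratio 2.36, 1.95 to 2.79). Ccr2 was detected in 79 of the 97, at 1020 against 574 CPM. H2-DMb2 was counted with 25 UMIs in these nuclei and 3 in the others, and none of those 3 lay in the cDC1-like nuclei, whereas H2-DMb1 was detected in 56 of the Fn1 nuclei and 18 of the cDC1-like nuclei. Batf3, a transcription factor of the cDC1 list, was higher in the Fn1 subset (196 against 88.5 CPM, log2 ratio 1.15, 0.58 to 1.74). Irf8 was detected in 3 of the 97 and Stab1 in 4, and Timd4 and Itgae had 0 UMIs. Nuclei with Fn1 were deeper, with a median of 3485 UMIs against 2327 in the rest, so shares of nuclei with a UMI were read at unequal depth.

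The 126 nuclei with neither marker had more of the complement and resident macrophage transcripts, but less Lyz2 (751 against 947 CPM) and Tbxas1 (376 against 998). Apoe stood at 1232 CPM against 189 in the other 130 nuclei, Maf at 1056 against 205 and C1qa at 499 against 144. C1qa was detected in 60 of the 126 nuclei, Csf1r in 58, Mgl2 in 63 and Clec10a in 52. Stab1 (258 against 12.2 CPM) and Folr2 (114 against 8.13) also lay almost wholly here. These nuclei had fewer UMIs, with a median of 2203 against 3272.5, and a UMI count of 0 does not show that a nucleus lacked Fn1 or Clec9a RNA. Cd209a, a cDC2 marker, did not follow the split, with 13 nuclei in the Fn1 subset, 18 in the subset with neither marker and 1 in the cDC1-like subset.

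**Figure D3:**
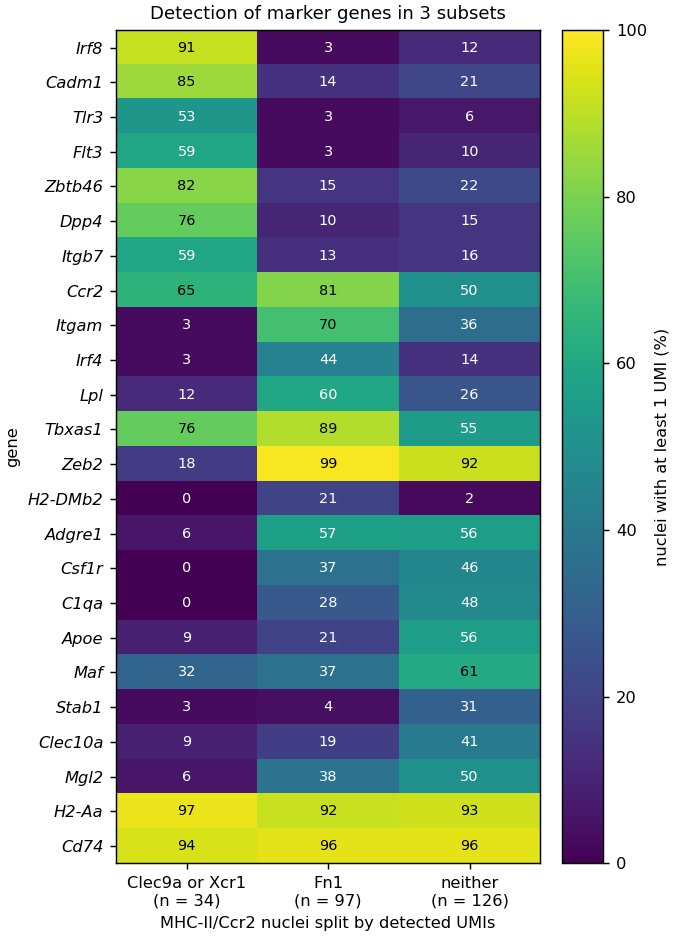
Percent of nuclei with at least 1 UMI of each gene (rows, colour and printed value) in MHC-II/Ccr2 nuclei with a UMI of Clec9a or Xcr1 (n = 34), with Fn1 (n = 97, of which 1 also holds Clec9a or Xcr1) and with neither (n = 126). Irf8 is detected in 91.2%, 3.09% and 11.9%, and C1qa in 0%, 27.8% and 47.6%, while H2-Aa and Cd74 are above 90% in all 3.

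The age comparison asks whether such nuclei were more frequent in Old than in Young muscle. They made up 1.08% of nuclei in Old (95% Wilson interval 0.906 to 1.28) and 0.619% in Young (0.493 to 0.777), a ratio of 1.74 (exact interval 1.30 to 2.36). With 1 library per group there is no replicate and no test, and the intervals cover counting error only. The libraries also differed in make-up, with 5951 myofibre-rich nuclei of 11686 retained in Old and 7889 of 11795 in Young. Fewer myofibre-rich nuclei leave a larger share to every other class, and the part of this in the ratio was not tested. Resident-like nuclei were also more frequent in Old, with 2.28% against 1.29% (ratio 1.77, 1.45 to 2.18). As a share of both classes together, MHC-II/Ccr2 nuclei were 32.1% in Old and 32.4% in Young, a ratio of 0.988 (0.735 to 1.34). T cell-like nuclei were also more frequent in Old, with 57 against 19 (ratio 3.03, 1.77 to 5.39), and B cell-like nuclei less, with 15 against 35 (0.433, 0.219 to 0.813). Within the MHC-II/Ccr2 nuclei the cDC1-like subset was 15.9% in Old and 10.96% in Young, with overlapping Wilson intervals (10.5 to 23.2 and 5.66 to 20.2), and the Fn1 subset was 40.5% and 42.5%.

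The exercise comparison asks the same of Running against Sedentary muscle. The share was 0.293% in Running (0.213 to 0.401) and 0.179% in Sedentary (0.115 to 0.280), a ratio of 1.63 whose exact interval of 0.917 to 2.99 includes no difference. The Sedentary library was shallow, with a median of 1664 UMIs per retained nucleus against 2790 to 3001 in the other 3. With nuclei thinned to 1000 UMIs before the rule, the ratio was 2.71 (1.28 to 6.40), on 35 and 9 nuclei. Shallower nuclei were left out, which kept 11917 of 12991 nuclei in Running and 8295 of 10587 in Sedentary. With the stricter rule the ratio was 2.10 (1.10 to 4.21). Neither this interval nor that after thinning includes no difference. The intervals of 2 other alternatives do include it. With a looser rule of at least 2 UMIs the ratio was 1.39 (0.821 to 2.41), and without the deepest nuclei it was 1.54 (0.845 to 2.90). Resident-like nuclei were 1.19% and 0.425%, a ratio of 2.81 (2.003 to 4.004). As a share of both classes, MHC-II/Ccr2 nuclei were 19.7% in Running and 29.7% in Sedentary, which turns the direction (ratio 0.663, 0.373 to 1.22). The cDC1-like subset numbered 4 nuclei in Running and 2 in Sedentary, and the Fn1 subset 9 and 6.

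**Figure D4:**
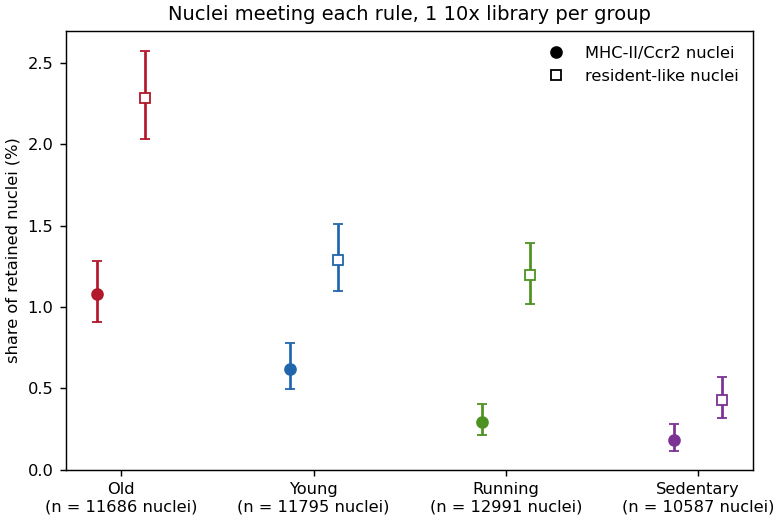
Share of retained nuclei (%) that met the MHC-II/Ccr2 rule (filled circles) or the resident-like rule (open squares) in each 10x library, with 95% Wilson intervals as bars, n being the retained nuclei. Both classes are higher in Old (1.08% and 2.28%) than in Young (0.619% and 1.29%) and lowest in Sedentary.

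Within the MHC-II/Ccr2 nuclei, several genes named on the Old side are transcripts of muscle fibres, and S100a4 and Ms4a6c on the Young side are known from myeloid cells. Of 6 genes of the myofibre list with enough UMIs, 1 (Ttn) was past 2-fold, higher in Old. Of 2867 genes with at least 50 UMIs over both libraries, 172 (6%) differed at least 2-fold, 116 (4.05%) higher in Old and 56 (1.95%) higher in Young, a rule of size and not a test. With nuclei thinned to 1000 UMIs and shallower nuclei left out, the balance turned, to 11 higher in Old and 19 higher in Young of 724 genes. Mylk4, a muscle myosin kinase, stood at 1784 CPM in Old and 339 in Young (log2 ratio 2.40, exact interval 2.06 to 2.75), and was detected in 93 of 126 and 17 of 73 nuclei. Flnc, Ostn, Tcap and Nrap, of the sarcomere or secreted by muscle, had 67, 55, 50 and 136 UMIs in Old against 2, 2, 2 and 14 in Young (lower interval bounds of the log2 ratio 2.25, 1.95, 1.80 and 1.57). In Old, 38, 27, 10 and 31 of these UMIs came from 1 nucleus for each gene, in the same order. For Mylk4 1 nucleus gave 148 of 763 UMIs, and for Kcnq5 61 of 178. The intervals treat the UMIs of 1 nucleus as independent. Kcnq5, Abca8a and Gm15261 completed this side by the naming rule. All 8 genes were also higher in Old in resident-like nuclei (log2 ratios 0.39 to 2.57) and in all other nuclei (0.31 to 3.27). The summed myofibre list moved the same way, at 14166 against 7926 CPM, as did the fibro-adipogenic list, at 465 against 150. The part of such RNA in these ratios was not tested.

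On the Young side, S100a4 stood at 391 CPM against 98.2 in Old (log2 ratio -1.99, -2.56 to -1.45; 18 of its 89 UMIs in Young came from 1 nucleus) and S100a10 at 211 against 72.5. Both are calcium-binding proteins of the S100 family, and S100a4 is common in migrating myeloid cells. The log2 ratio of S100a4 was -0.89 in resident-like nuclei and -0.04 in all other nuclei. Maf stood at 880 CPM in Young and 311 in Old (log2 ratio -1.50, -1.83 to -1.18), with UMIs in 39 of 73 and 48 of 126 nuclei. It was lower in Old in all other nuclei too (-1.59), and by less in resident-like nuclei (-0.30). In all other nuclei Maf stood at 1626 CPM in Young and 539 in Old, above its level in the MHC-II/Ccr2 nuclei of the same library. The part of this RNA in the ratio of Maf was not tested. Ms4a6c, a membrane protein of myeloid cells, was detected in 21 of 73 nuclei in Young and 14 of 126 in Old (log2 ratio -1.69, -2.54 to -0.87), and it was higher in Old in all other nuclei (1.24). Lars2, AY036118, Tanc2 and Rad51b were the rest, and the first pair fell in Old in resident-like nuclei by about as much (-1.53 and -1.02). Of the list genes, B2m, Nlrc5 and Tapbp of MHC class I, Abca1, C1qc and Parp14 were also over 2-fold higher in Young. The 14 genes of MHC class II processing outside the rule summed to 1922 CPM in Old and 2142 in Young (log2 ratio -0.16, -0.32 to 0.01), the cDC1 list to 2137 and 2340 (-0.13, -0.29 to 0.03), and the glycolysis list to 917 and 968 (-0.08, -0.32 to 0.17), and the interval of each of these 3 ratios included no difference. Other lists were lower in Old by intervals that did not include it: the resident macrophage list (-0.80, -0.93 to -0.67), the interferon list (-0.65, -0.90 to -0.41), the cell cycle list (-0.65, -1.12 to -0.17), the macrophage list (-0.50, -0.60 to -0.41), the myeloid transcription factors (-0.37, -0.44 to -0.29), the MHC class I list (-0.29, -0.46 to -0.11) and the list of lipid handling and efferocytosis (-0.25, -0.39 to -0.12). Counted by nucleus, the cell cycle list did not follow its sum. At least 2 of its UMIs were found in 12 of 126 nuclei in Old (9.52%) and 4 of 73 in Young (5.48%). The Wilson intervals overlapped (5.53 to 15.9 and 2.15 to 13.3). List sums include the genes of the rule that stand on a list. Over all 10x libraries, Mrc1, F13a1 and Cd163 made 985, 785 and 207 of the 3016 CPM of the resident macrophage list. Csf1r and Lyz2 are in the macrophage list and Wdfy4 in the cDC1 list. The ratios of these lists are thus in part fixed by the choice of nuclei. In myofibre-rich nuclei the resident macrophage list was also lower in Old (794 against 2225 CPM). So were the myeloid transcription factors (1644 against 3006) and, by little, the cell cycle list (53.5 against 57.3). The macrophage, interferon, MHC class I and lipid handling lists were higher in Old there. The part of surrounding muscle RNA in the lower list sums was not tested. Beside the myofibre and fibro-adipogenic lists, the monocyte list (0.33, 0.12 to 0.54), the adipocyte list (0.56, 0.11 to 1.04) and the T and NK cell list (0.99, 0.00043 to 2.10) were higher in Old.

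Running against Sedentary rested on 134313 and 43356 UMIs. Of 614 genes with at least 50 UMIs, 128 (20.8%) differed at least 2-fold, 84 (13.7%) higher in Running and 44 (7.17%) higher in Sedentary. Scaled by TMM factors the split was 126 to 24, and the median log2 ratio over the genes moved from 0.04 to 0.29. All 8 genes named on the Running side, except the ubiquitin ligase Pdzrn3, which is also active in muscle, encode proteins of the muscle fibre. Ttn (titin) stood at 16707 against 3414 CPM (log2 ratio 2.29, 2.05 to 2.54), Acta1 at 1102 against 69.2 (3 UMIs in Sedentary, log2 ratio 3.99, 2.42 to 6.29), Tnnt3 at 1511 against 185 and Atp2a1 at 1891 against 300. Ampd1 and Actn3 had 65 and 58 UMIs in Running and 0 in Sedentary, at least 6.99-fold and 6.24-fold higher against a floor of 3 UMIs in the Sedentary library. The exact intervals, which also cover the counting error in Running, had lower log2 bounds of 2.47 and 2.30. Nexn had 71 UMIs against 1 (log2 ratio 4.52, 1.99 to 9.84). In all other nuclei 7 of the 8 genes were also higher in Running, Pdzrn3 being the exception (-0.04). In resident-like nuclei Acta1 (1.64), Actn3 (0.73), Tnnt3 (0.41) and Ampd1 (0.28) were higher in Running, and Ttn (-1.17), Pdzrn3 (-0.51), Atp2a1 (-0.25) and Nexn (-0.14) were lower. The myofibre list summed to 25738 CPM in Running and 5420 in Sedentary, and its part in these ratios was not tested.

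On the Sedentary side, Gm10800 (382 UMIs against 14), Gm10801 (98 against 8) and Gm21738 (55 against 4) led, with 288, 67 and 37 of the UMIs from 1 nucleus. All of them were lower in Running also in resident-like nuclei (log2 ratios -5.86, -4.85 and -5.46). Thsd4, Kcnk13, Cd200r1, Dip2c and Gsn followed with 30 to 54 UMIs in Sedentary, of which 11 to 32 came from a single nucleus. Cd200r1, an inhibitory receptor of myeloid cells, was detected in 7 of 19 nuclei in Sedentary and 9 of 38 in Running. Among list genes, Cadm1 and H2-D1 were over 2-fold higher in Running, and Itgam, C1qa and Ikzf1 in Sedentary. The MHC class II processing genes outside the rule summed to 1497 CPM in Running and 1430 in Sedentary (log2 ratio 0.07, -0.35 to 0.50), and the glycolysis list to 1176 and 738 (0.67, 0.12 to 1.27). No single gene of the glycolysis list had 50 UMIs over both libraries. The myofibre list was also higher in Running (25738 against 5420 CPM), and its part in the glycolysis sum was not tested. The cDC1 list was higher in Running (0.98, 0.58 to 1.40). Its sum includes Wdfy4 of the rule, at 1134 of 2248 CPM over all 10x libraries. Of its other genes, only Cadm1 had at least 50 UMIs over both libraries. The cDC1-like subset was 10.5% of the nuclei in Running and 10.5% in Sedentary, on 4 and 2 nuclei. The cDC2 list (-1.19, -1.59 to -0.78), the cell cycle list (-1.18, -1.75 to -0.60), the chemokine receptors and integrins (-0.47, -0.86 to -0.08) and the list of lipid handling and efferocytosis (-0.34, -0.64 to -0.04) were lower.

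**Figure D5:**
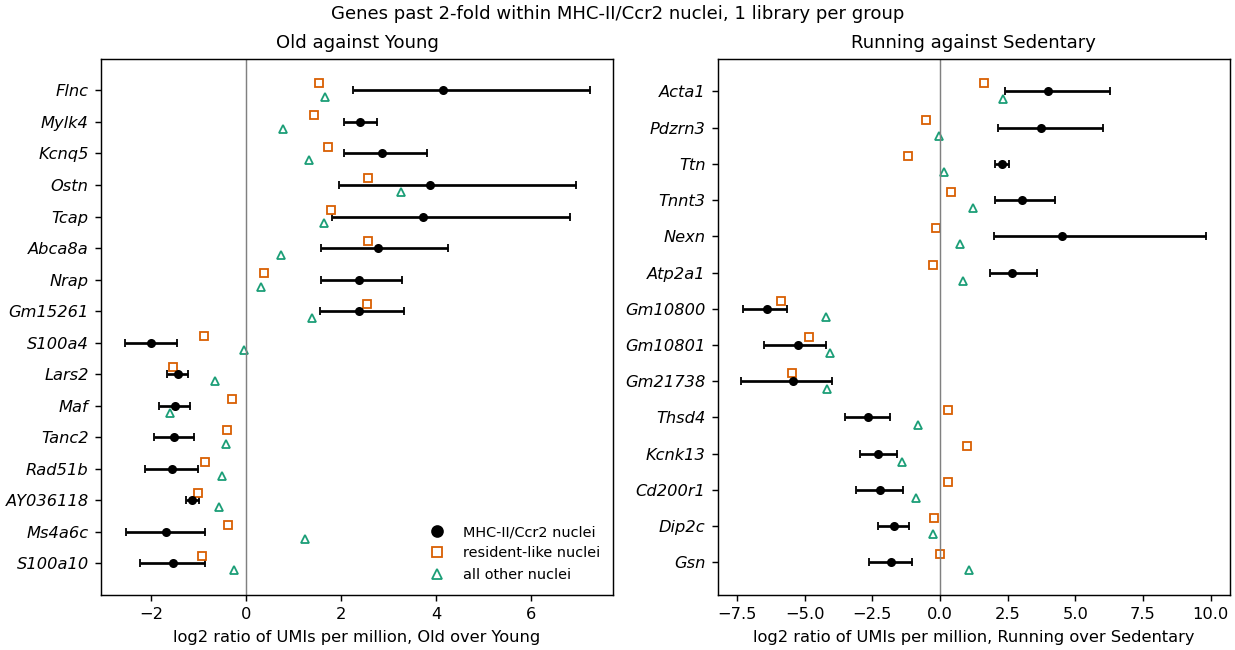
Log2 ratio of CPM between the groups of each comparison for the genes named within MHC-II/Ccr2 nuclei (black circles, bars are exact 95% intervals for counting error), beside the ratio of the same gene in resident-like nuclei (open squares) and in all other nuclei (open triangles). The 8 genes higher in Old are above 0 in all 3 classes, while Ttn is above 0 in MHC-II/Ccr2 nuclei (2.29) and below 0 in resident-like nuclei (-1.17). Ampd1 and Actn3, at 0 UMIs in Sedentary, are not drawn.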

How the data were processed

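Nuclei of frozen gastrocnemius muscle were profiled by single-nucleus RNA-seq in 8 libraries, 4 of them 10x. The deposited matrices hold raw UMI counts per gene and nucleus, which the authors made with Cell Ranger 6.1.2 on mm10 for 10x and with PISA for the second set. Nuclei were retained above 200 and below 6000 detected genes, with mitochondrial UMIs below 6%. The members and gene lists were chosen with earlier results of these data known. UMI counts were summed per library and class. They were compared with edgeR 4.0.16 (TMM, filterByExpr, quasi-likelihood test, Benjamini-Hochberg over all tested genes, library as a term, since both classes come from the same library; 3 residual degrees of freedom), leaving out mitochondrial, ribosomal and rule genes. On simulated data for this comparison, 86 of 94 genes changed 4-fold and 42 of 94 changed 2-fold were recovered. The 4 libraries come from groups of different animals, but the mice per library are not given in the sources used here, so p-values measure the spread between libraries. Between groups, with 1 library each, ratios of counts carry exact conditional intervals. Total UMIs per 10x library lay between 23390969 and 44454427. No doublet caller was run, and the 6% of nuclei with the most UMIs were left out as an alternative. Genes were named by rule: up to 12 called genes per direction with the largest change, 1 direction in all 4 libraries and mean log2 CPM no lower than 5, up to 8 per direction within members by the interval bound nearest to no difference, and list genes.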

Additional observations from a re-analysis of the deposited data

How the results depend on the processing

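The comparison with resident-like nuclei called 963 genes. DESeq2 called 618. Thinning nuclei to 1000 UMIs, with shallower nuclei left out, gave 501, with fewer genes tested (3064). Without the library as a term, that is with no replicate block for the pairing of both classes within a library, 628 were called, of 5412 tested. Leaving out 1 library gave 324 (without Old) to 1054 genes (without Sedentary). Of the 963 genes, 324 were called again without Old, 523 without Young and 618 by DESeq2. Of the named and list genes, 16 lost their call by DESeq2, 14 without the library as a term and 8 after thinning, where they were tested. RLE scaling, no filter, the stricter rule and leaving out the deepest nuclei gave 858 to 1076. No named gene that was called in the main comparison changed direction under any of these alternatives where it was tested. For named genes that were not called, changes of direction were not counted. Counted over members and resident-like nuclei only, the ratio of shares turned to 0.988 for Old against Young and to 0.663 for Running against Sedentary; the other alternatives gave 1.61 to 1.75 and 1.39 to 2.71. Genes past 2-fold numbered 172 for Old against Young, 697 with at least 20 UMIs and 30 after thinning, of which 11 were higher in Old. For Running against Sedentary they numbered 128, 558 with at least 20 UMIs, 15 after thinning and 70 without the deepest nuclei. The lower UMI limit admits more genes and thinning fewer. Of the genes named within members, 9 left the interval of their main ratio after thinning and 16 stayed inside it. Without the deepest nuclei 7 left it and 23 stayed, and under the stricter rule 2 left it and 28 stayed. With TMM factors all 30 stayed inside. Ampd1 and Actn3, at 0 UMIs in Sedentary, have no ratio to vary. The Sedentary values rest on 19 nuclei, from the 10x library with the lowest median depth.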
